A study of Capsicum annuum with 78 samples.

Results

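Leaves of pepper (*Capsicum annuum* cv. Bukang) sprayed with salicylic acid (SA) were compared with leaves sprayed with distilled water (mock), both collected 6 h after treatment. The comparison was defined by the sample titles as 3 libraries of SA 6h against 3 libraries of mock 6h, which are 6 of the 78 libraries of the series, and it was read across all genes. SA was given as 5 mM sodium salicylate to plants with 6 true leaves, grown with 16 h of light and 8 h of dark per day. Each library held the pooled leaves of 4 plants. The whole series has 26 groups of 3 libraries, from water, SA, ethephon (ET, a compound that releases ethylene), methyl jasmonate (MeJA) and abscisic acid (ABA) at up to 24 h. The other groups used here were SA and mock at 1, 3, 12 and 24 h and, at 6 h, 5 mM ethephon, 100 μM MeJA and 100 μM ABA. Each treatment was incubated separately in the growth chamber, so the SA treatment and its incubation cannot be told apart in these data.

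SA is a phenolic hormone of plants that builds up in leaves attacked by biotrophic pathogens. It is perceived by the NPR family of proteins, which act with TGA transcription factors on defense genes such as those of pathogenesis-related proteins, and it takes part in systemic acquired resistance. Sprayed SA sets this signaling off without a pathogen. The comparison asks which genes of a pepper leaf differ from water-sprayed leaves at the same hour, by how much, and how the difference at 6 h relates to that at the neighbouring times. The counts name genes only by identifiers of the CM334 annotation v.1.6, and 0 of the 35884 identifiers were found in the RefSeq gene table of the assembly UCD10Xv1.1. For that reason no known SA gene, pathway or leaf cell type could be looked up, the label of the tissue could not be checked against marker genes, and genes are described by their values and by at most 2 identifiers in each direction.

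SA libraries were shallower than mock libraries. They held 5635530, 5723460 and 5746550 counts, and the mock libraries held 7090509, 8034217 and 8357328, so every SA library was below every mock library and the SA mean was 72.8% of the mock mean. The floor of 3 counts, which covers counting error only, was at 0.522 to 0.532 CPM (the count of a gene rescaled to a common library total) with SA and 0.359 to 0.423 CPM in mock. An SA library had counts for 21374 to 21976 genes and a mock library for 21450 to 21890. Replicates differed by more than sampling noise, with a chi-square of 5.38 to 9.93 per degree of freedom between SA libraries and of 3.15 to 3.59 between mock libraries. Each library was therefore counted as 1 replicate, and the SA replicates lay further apart than the mock replicates.

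At 6 h the SA leaves differed from mock in a large part of the transcriptome, and the strongest changes were rises. Of 18569 genes tested, 7574 differed from mock, which is 40.8% (Benjamini-Hochberg adjusted p under 0.05 in the quasi-likelihood test of edgeR). Among them 4009 were higher with SA (21.6% of those tested) and 3565 were lower (19.2%). Among genes with at least 10 counts in every 6 h library of SA and mock, 3319 were higher and 3370 lower. Their share of the genes passing that filter was not taken, so these counts describe the balance of directions only. Of the 7574 genes, 2657 also had a fitted change of at least 2-fold (14.3% of those tested). Of these, 1630 rose (8.78% of those tested) and 1027 fell (5.53%). The median fitted log2 fold change over all genes tested was -0.01. It was 1.91 on the log2 scale for the genes that rose at least 2-fold and -1.35 for those that fell at least 2-fold. With the libraries of both groups thinned to 5002113 counts, the smallest total among the 30 fitted, 7101 genes were called.

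The balance between rises and falls moved with the size of the change. Below 1.5-fold, 1266 of the called genes were higher and 1284 were lower. From 1.5-fold to 2-fold the numbers were 1113 and 1254, and from 2-fold to 4-fold 863 and 887. Between 4-fold and 16-fold, 497 genes were higher and 134 were lower. At least 16-fold by the fitted value, 270 genes were higher and 6 were lower. A fitted fold change of a gene without counts in one group depends on the small count that the model adds, and 65 of the 270 had 0 counts in every mock library. With such genes placed at their lower bound, set by the mean floor of 3 counts per library, 218 genes rose at least 16-fold and 3 fell. The median size was then 1.88 on the log2 scale for the rises and 1.34 for the falls, 1 fallen gene without a bound left out.

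**Figure D1:**
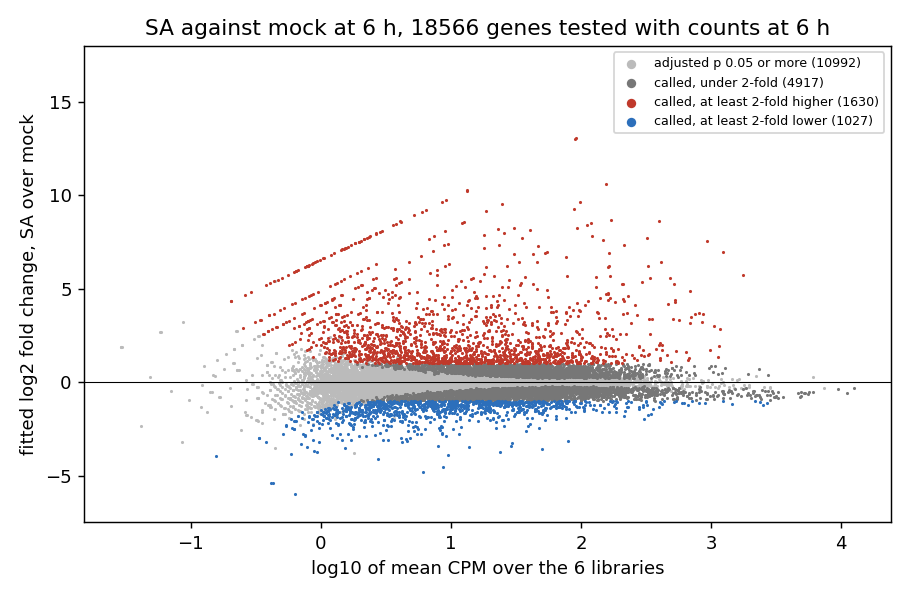
Each point is 1 of 18566 genes (those tested with counts at 6 h), with the log10 of its mean CPM over the 6 libraries on the x axis and the fitted log2 fold change of SA over mock on the y axis. The 1630 genes that rose at least 2-fold (red) reach further from 0 than the 1027 that fell (blue), and the slanted line of points at the upper left is made of genes with 0 counts in mock.

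For many genes the data limited the difference to a narrow range. A 95% interval of the fold change could be formed for 18566 genes. It lay within 2-fold in either direction for 11035 genes, of which 7752 were not called, and within 1.5-fold for 5280 genes, of which 4668 were not called. The remaining genes that were not called had wider intervals, and no statement on them is possible at this depth.

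A change was called more often among abundant genes. Among 648 genes with a mean under 1 CPM over the 6 libraries, 21.0% were called, and among 432 genes with a mean of at least 300 CPM it was 70.1%. The median standard error of the log2 fold change was 0.74 in the first class and 0.13 in the second, but it was 0.11 from 100 to 300 CPM, where 60.8% were called. The share of genes called at least 2-fold higher did not follow this order. It was 14.0% under 1 CPM, 6.59% from 30 to 100 CPM and 10.6% at 300 CPM and more. The shares called at least 2-fold lower were 6.94%, 3.62% and 6.02% in the same classes. Under 1 CPM all 91 higher and 45 lower calls were at least 2-fold, since smaller changes were not called at standard errors of this size. The high shares there do not show that weakly expressed genes responded more strongly. Of the 303 called genes in the most abundant class, 207 were lower and 96 were higher, so that small falls made up most calls among the most abundant genes, while rises of at least 2-fold (46 genes) outnumbered such falls (26 genes).

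**Figure D2:**
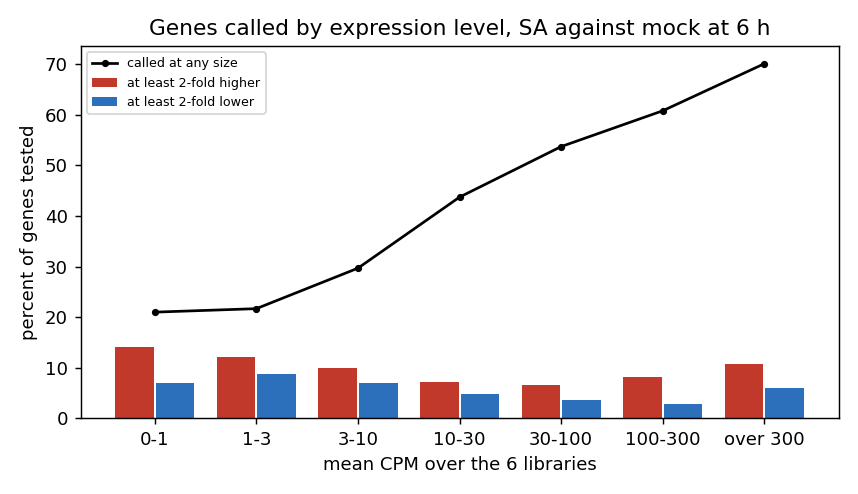
Genes were grouped by their mean CPM over the 6 libraries (x axis), and the y axis gives the percent of the genes tested in a class. The line, for genes called at any size, runs from 21.0% to 70.1%, while red bars (at least 2-fold higher) and blue bars (at least 2-fold lower) are highest at low levels, and the red bar is above the blue bar in each of the 7 classes. At the lowest level only changes of at least 2-fold were called.

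The risen genes filled a larger part of the library with SA. The 1630 genes that rose at least 2-fold took 12.4%, 10.1% and 13.7% of the counts in SA libraries 1, 2 and 3, and 2.45%, 2.36% and 2.43% in the mock libraries. The 1027 genes that fell at least 2-fold took 2.52%, 3.02% and 2.44% with SA and 6.13%, 6.04% and 5.88% in mock. These genes were chosen on the same libraries, so the shares are a description. Summed over the risen genes, the gain was 9.66 percentage points, of which 10 genes gave 18.7% and 100 genes 61.0%. The fallen genes lost 3.36 percentage points, of which 10 genes gave 32.4% and 100 genes 70.6%. The 10 most abundant genes of a library took 5.77% to 7.31% with SA and 8.36% to 8.57% in mock.

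A small group of genes went from no counts to clear expression. At 6 h, 27 genes had 0 counts in all 3 mock libraries and at least 10 counts in each SA library, and 1 gene, which the filter left untested, had the reverse pattern. All 27 were among the genes tested, and their mean with SA ranged from 1.87 to 183.7 CPM with a median of 5.91 CPM. The mean of 9 of them was over 10 CPM and that of 2 over 100 CPM. No counts in mock allow a level of up to 0.385 CPM, the mean floor of the mock libraries. Of the 27 genes, 9 had 0 counts in all 18 mock libraries of the series, and the others had at least 1 count at another hour. At least 10 counts in each SA library were also found for 3 of them after 1 h, 18 after 3 h, 17 after 12 h and 3 after 24 h. At 6 h in the other treatments, at least 10 counts in each library were found for 6 of the 27 genes with ET, 0 with MeJA and 0 with ABA, and 0 counts in each library for 5, 15 and 11 of them.

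The gene with the largest fitted rise was CA.PGAv.1.6.scaffold1003.17. It had 0 counts in each mock library at 6 h and 1032, 724 and 1388 counts in SA libraries 1, 2 and 3, which are 183.1, 126.5 and 241.5 CPM. All SA libraries thus lay far above mock, and their mean of 183.7 ± 57.5 CPM (SD, n = 3) exceeded the floor of 3 counts per mock library at least 477-fold (adjusted p = 3.83e-17, edgeR). It also had 0 counts in the mock libraries of every other hour. With SA its mean was 0.564 CPM after 1 h, 59.4 CPM after 3 h, 41.3 CPM after 12 h and 7.65 CPM after 24 h, so its highest level was at 6 h. Whether its response differed between hours could not be tested against mock, which had no counts at either hour. At 6 h it had 17, 12 and 18 counts with ET, 2, 0 and 0 with MeJA, and 0 in each ABA library. Compared with the ET leaves directly, it was higher with SA by 6.40 ± 0.24 on the log2 scale (SE, adjusted p = 1.01e-12, edgeR). The same SA libraries served to choose this gene, so the size of that difference is partly set by the choice.

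The largest gain in CPM belonged to CA.PGAv.1.6.scaffold1405.6, an abundant gene after SA. Its levels were 2673, 3485 and 4269 CPM in SA libraries 1, 2 and 3, and 56.8, 75.3 and 56.8 CPM in mock. The groups did not overlap, and the log2 fold change was 5.73 ± 0.42 (SE, adjusted p = 3.94e-13, edgeR). In mock leaves its mean was 63.0 ± 10.7 CPM (SD, n = 3) at 6 h and between 13.2 and 27.4 CPM at the other hours, a difference that was not tested. With SA it went on to 5674 ± 602 CPM (SD, n = 3) at 12 h and was at 2214 ± 165 CPM (SD, n = 3) at 24 h. Its response at 6 h was below that at 12 h by 1.97 ± 0.52 log2 units (adjusted p = 0.00787, edgeR), and it did not pass the test against 3 h (0.67 ± 0.55, adjusted p = 0.463, edgeR). At 6 h its mean was 747 CPM with ET, 862 CPM with MeJA and 488 CPM with ABA. It was higher with SA than with each of them, by 2.19, 1.97 and 2.76 log2 units with adjusted p of 8.06e-08, 5.04e-07 and 6.04e-09 (edgeR). The gene was chosen for its gain in the same SA libraries, so these differences are partly set by the choice.

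Among the falls with at least 10 counts in each mock library, CA.PGAv.1.6.scaffold160.11 had the largest fitted change. Another 3 called genes had a larger fitted fall, all with 0 counts in every SA library and under 10 counts in at least 1 mock library. It had 95, 97 and 81 counts in the mock libraries at 6 h and 4, 2 and 1 counts with SA, which are 13.4, 12.1 and 9.69 CPM against 0.710, 0.349 and 0.174 CPM. Every mock library was thus above every SA library. From the summed counts of 273 and 7, the level in mock was 28.4 times that with SA, with a 95% interval of 13.6 to 71.3 that covers counting error only. The fitted log2 fold change was -4.82 (adjusted p = 5.10e-11, edgeR). Its standard error from the F statistic was 0.43, which is smaller than counting error alone and so too small for counts this low. The fall was larger at 6 h than at 3 h (difference of -3.11 ± 0.76 log2 units) and than at 12 h (-3.31 ± 0.56, SE, adjusted p = 0.00479 and 4.80e-05, edgeR). The gene was chosen for its fall in the same 6 h libraries, so the size of these differences is partly set by the choice. At 6 h its mean was 1.40 CPM with ET, 2.65 CPM with MeJA and 3.90 CPM with ABA. The SA level was below each of these in the direct tests, with adjusted p of 0.0150, 0.000299 and 1.45e-05 (edgeR). These tests used the SA libraries on which the gene was chosen, so the choice favoured them too. The SA and ET libraries overlapped, with 0.710 CPM in SA library 1 and 0.640 CPM in ET library 3. SA libraries 2 and 3 were under the floor of 3 counts.

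The largest loss in CPM was a small change of a very abundant gene, CA.PGAv.1.6.scaffold225.2. It was at 12755, 13337 and 13213 CPM in the mock libraries and at 8931, 10861 and 7361 CPM with SA. The groups did not overlap, and the log2 fold change was -0.58 ± 0.16 (SE, adjusted p = 0.00451, edgeR). Without SA library 3 it was -0.43, with an adjusted p of 0.0524 (edgeR). At 3 h the log2 fold change was -0.12 ± 0.16 and at 12 h -1.35 ± 0.17. The difference of 0.77 ± 0.23 between 6 h and 12 h passed the test (adjusted p = 0.0181, edgeR), and that of -0.46 ± 0.23 between 6 h and 3 h did not (adjusted p = 0.198, edgeR). It was lower with SA than with ET by a log2 difference of -0.61 and than with ABA by -0.68 (adjusted p = 0.00276 and 0.00139, edgeR). Against MeJA leaves of the same hour, where its mean was 9989 ± 568 CPM (SD, n = 3), it was not shown to differ (-0.18 ± 0.16, adjusted p = 0.392, edgeR). As the gene was chosen for its loss in the same SA libraries, the choice favoured a lower level with SA in these hormone tests.

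**Figure D3:**
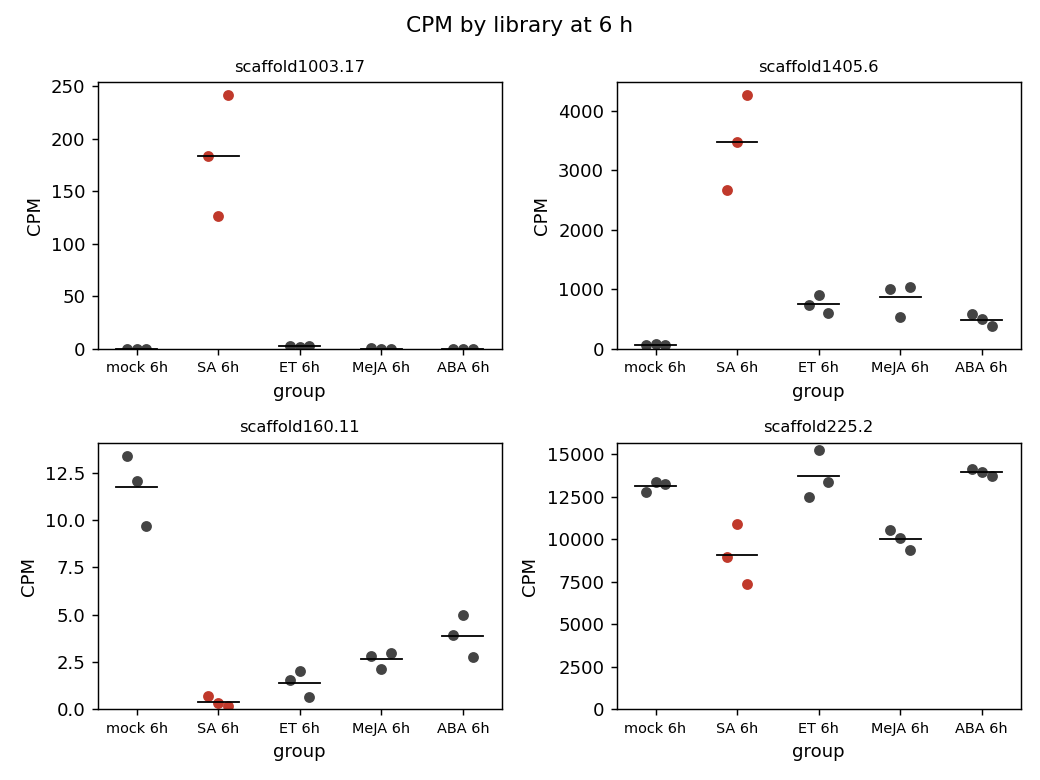
CPM of the 4 named genes (y axis, linear and starting at 0) in each library of the 5 treatments at 6 h (x axis), with SA in red and a line at the mean of 3 libraries. The 3 SA libraries are above the 12 others in both upper panels, with means of 183.7 and 3476 CPM, and below the mock libraries in both lower panels, with means of 0.411 and 9051 CPM.

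The 3 SA libraries differed in how far the risen genes lay from mock. To measure this on genes not chosen for their change at 6 h, genes were chosen at 3 h and 12 h. There, 842 genes had risen and 273 had fallen at least 2-fold at both times. The 6 h libraries still entered the filter and the shared spread of the fit behind these calls. On the 842 genes, the median difference from the mock mean at 6 h was 1.79 in SA library 1, 1.64 in library 2 and 2.03 in library 3, in log2 units of scaled CPM. Library 2 was the nearest of the 3 to mock, or the furthest past it, for 528 of these genes (62.7%) and library 3 for 77 (9.14%). The medians of the mock libraries were between -0.02 and 0.02. On the 273 fallen genes, the medians were -0.68, -0.82 and -0.77, so library 2 was not the nearest to mock there. The first principal component of the 6 libraries held 79.8% of their variance. It gave the same order as the risen genes, with scores of 53.8, 43.7 and 63.2 for SA libraries 1, 2 and 3. The mock scores were between -53.7 and -53.4. This component was taken over all genes tested, including the 842, so it is not a separate check. As the SA libraries differed on the risen genes, the count of genes called at 6 h was taken again without each of them. It was 6975 without SA library 1, 7252 without library 2 and 6070 without library 3.

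**Figure D4:**
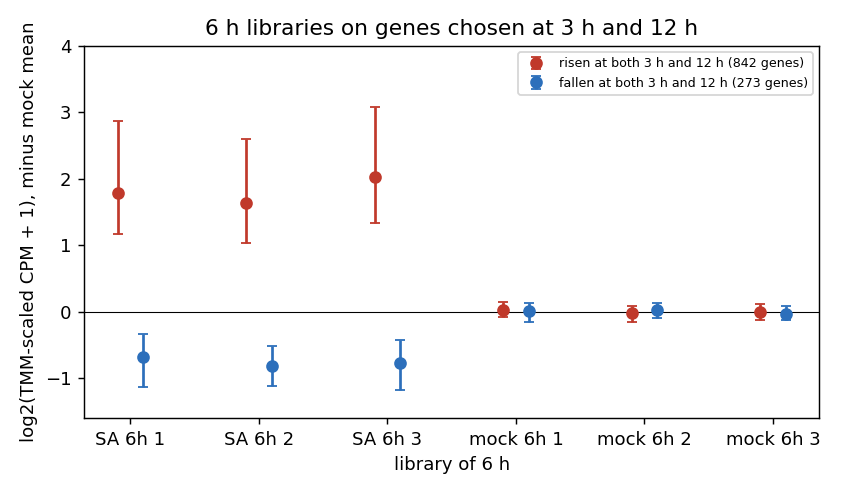
For each 6 h library (x axis), points give the median and bars the quartiles of log2 of scaled CPM plus 1 minus the mock mean (y axis), over 842 genes that had risen (red) and 273 that had fallen (blue) at both 3 h and 12 h. The medians of the risen genes are at 1.79, 1.64 and 2.03 in the SA libraries, and all mock medians are close to 0.

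The genes found at the hours around 6 h were largely changed at 6 h too. Of the 842 genes risen at both 3 h and 12 h, 786 (93.3%) were called higher at 6 h and 735 rose at least 2-fold, with a median log2 fold change of 2.57. Of the 273 fallen genes, 185 (67.8%) were called lower and 111 fell at least 2-fold, with a median of -0.86. In each list 1 gene was called in the opposite direction. Over all genes tested at 6 h, 21.6% were called higher and 19.2% lower.

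Read the other way, a larger share of the rises at 6 h than of the falls was also found at the neighbouring hours. Mock libraries are separate at each hour, so these comparisons share no library. Of the 1630 genes that rose at least 2-fold at 6 h, 1014 had also done so at 3 h, which is 62.2% of the 6 h list and 70.1% of the 1447 genes of 3 h (7.79% of those tested). With 12 h, 1046 were shared, which is 64.2% of the 6 h list and 54.8% of the 1910 genes of 12 h (10.3% of those tested). Of the 1027 genes that fell at least 2-fold, 221 were shared with 3 h, or 21.5% of the 6 h list and 32.9% of the 672 genes of 3 h (3.62%). With 12 h, 459 were shared, or 44.7% of the 6 h list and 28.5% of the 1608 genes of 12 h (8.66%). The falls lay nearer to the 2-fold threshold at 6 h, with a median of -1.35 against 1.91 for the rises. By adjusted p in the same direction, 1181 risen and 422 fallen genes were called at 3 h (15.7% and 13.1% of all tested). At 12 h it was 1257 and 624 (23.3% and 23.9% of all tested). At 1 h, 393 of the risen and 62 of the fallen genes passed the 2-fold thresholds, where 588 genes (3.17%) rose and 224 (1.21%) fell in all. At 24 h it was 318 and 98 of them, where 527 genes (2.84%) rose and 236 (1.27%) fell in all. By adjusted p alone, 167 of the risen genes were higher at all 5 times and 28 of the fallen genes lower at all 5 times. Another 130 risen and 172 fallen genes were called at no other time, which does not by itself show that 6 h differs from those times. These counts over several hours were not taken over all genes tested, so they only describe both lists.

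The median log2 fold change of the genes risen at 6 h was 0.64 after 1 h, 1.62 after 3 h and again after 12 h, and 0.46 after 24 h. That of the fallen genes was -0.14, -0.56, -0.94 and -0.35. The genes were chosen for their values at 6 h, so the peak there is partly set by the choice. Genes called in opposite directions at neighbouring hours were few, although by adjusted p 28.8% of the genes tested were called at 3 h and 47.2% at 12 h. Of 3510 genes called at both 3 h and 6 h, 99 were higher at 6 h and lower at 3 h and 101 the reverse. Of 5431 called at both 6 h and 12 h, 117 were higher at 6 h and lower at 12 h and 169 the reverse.

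**Figure D5:**
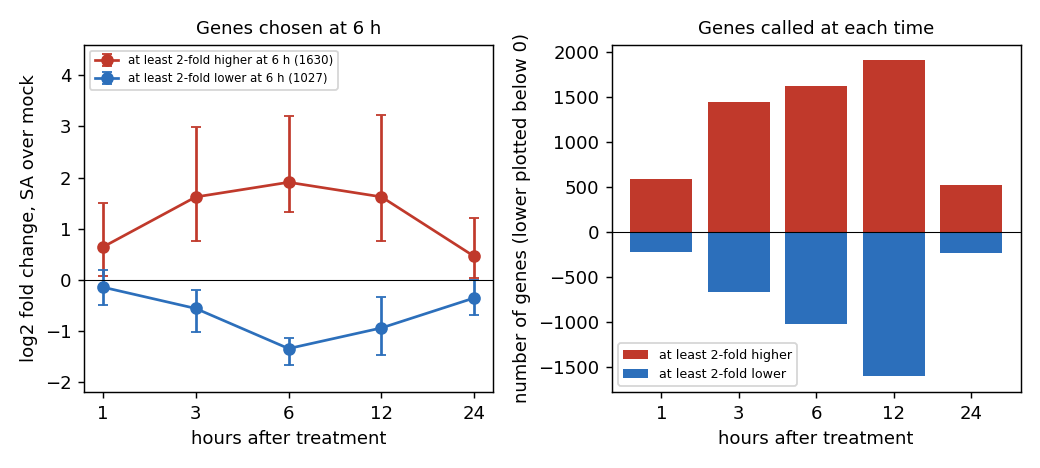
Left, the median log2 fold change of SA over mock (y axis, bars are quartiles over genes) at 1 to 24 h for the 1630 genes that rose (red) and the 1027 that fell (blue) at least 2-fold at 6 h, the hour they were chosen at. Right, the number of genes called at least 2-fold higher (red, above 0) or lower (blue, plotted below 0) at each hour, with 1630 and 1027 at 6 h against 1447 and 672 at 3 h and 1910 and 1608 at 12 h.

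Whether the response at 6 h differed from that at 3 h or 12 h was tested directly, as a difference of differences in the same model. It differed from the response at 3 h for 2679 genes (14.4% of 18569). In 1347 of them (7.25% of those tested) the SA difference was more positive at 6 h and in 1332 (7.17%) more negative, a split that leaned the other way in 9 of 13 alternatives. It differed from the response at 12 h for 2861 genes (15.4%), more positive at 6 h in 1566 (8.43%) and more negative in 1295 (6.97%). This balance turned around with only the 12 libraries of both times in the fit, which gave 1428 and 1564. Against the mean of the responses at 3 h and 12 h, 763 genes (4.11%) were more positive at 6 h and 775 (4.17%) more negative, together 8.28% of those tested. The value at 6 h entered both the choice of these genes and their sign at 6 h, so agreement between these is partly set by the choice. By the fitted sign at 6 h, 626 of these 763 genes were above mock and 606 of the 775 below mock. The fitted change at 6 h was on that side of mock and larger in size than at both 3 h and 12 h in 430 of the 763 and 393 of the 775, a description from the same libraries that was not tested against each hour.

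The direction of these differences was also described on genes taken from a time that did not enter the test. In each case that time was nearer to 6 h than to the hour compared with 6 h. The choice itself therefore favoured a larger response at 6 h. Of the 1910 genes that rose at least 2-fold at 12 h, 371 had a more positive response at 6 h than at 3 h and 147 a more negative one, and their median log2 fold change was 0.94 at 3 h and 1.23 at 6 h. Of the 1608 genes that fell at 12 h, 39 were more positive and 318 more negative at 6 h, with medians of -0.39 and -0.74. Both groups were thus further from mock at 6 h than at 3 h by their medians. Of the 1447 genes that rose at 3 h, 310 had a more positive response at 6 h than at 12 h and 134 a more negative one, with medians of 1.72 at 6 h and 1.45 at 12 h. For the 672 genes that fell at 3 h the numbers were 102 and 87, and both medians were -0.73. The medians of these differences over all genes tested were -0.02 against 3 h and 0.04 against 12 h.

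At 6 h the SA leaves were also compared directly with the leaves of the other hormones, without mock. Of 18253 genes tested, 8911 differed between SA and ET (48.8%), 6507 between SA and MeJA (35.6%) and 7645 between SA and ABA (41.9%) by the same kind of edgeR test. With at least 2-fold required, 2079 genes (11.4%) were higher and 1111 (6.09%) lower with SA than with ET. The numbers were 1507 (8.26%) and 885 (4.85%) against MeJA, and 1442 (7.9%) and 998 (5.47%) against ABA. Genes higher with SA were 65.2%, 63.0% and 59.1% of these, and 53.8%, 51.6% and 51.0% of the genes called at any size. These comparisons share the SA libraries. For 1720 genes (9.42%) the 3 SA libraries were above all 12 other libraries of 6 h, and for 853 genes (4.67%) below all of them, in scaled CPM. In 275 of the first and 10 of the second, the nearest other library was at least 2-fold away. Such separation was more frequent for ET, above the others in 2263 genes (12.4%) and below in 2580 (14.1%), and ranged from 0.915% to 2.26% for mock, MeJA and ABA.

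Part of the genes that rose lay beside each other in the order of the identifiers. Each identifier holds a scaffold and a running number, and genes of 1 scaffold with consecutive numbers were taken as neighbours. Of the 1630 risen genes, 1292 had a neighbour that was tested, and in 356 of these (27.6%) a neighbour had also risen at least 2-fold. Over all 15334 tested genes with a tested neighbour, 11.8% had a risen neighbour. Of 822 fallen genes with a tested neighbour, 143 (17.4%) had a neighbour that had fallen at least 2-fold, against 7.45% over all. Among 11296 neighbouring pairs, both genes had risen in 195, both had fallen in 79, and 1 had risen and 1 fallen in 75. Runs of at least 3 consecutive risen genes occurred 25 times and of at least 3 fallen genes 12 times, and the longest run was 5 in each direction. Across the pairs the Pearson correlation of the log2 fold changes was 0.20 (n = 11296 pairs of the same 6 libraries). Neighbours can be copies of one gene or can overlap, and how reads shared by them were counted is not given in the sources used here. Whether shared reads had a part in these numbers was not tested.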

How the data were processed

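RNA-seq counts of 78 libraries were used, from strand-specific poly(A) libraries. According to the labels and the study's methods, the authors used cutadapt 1.15 and Trimmomatic 0.38 for trimming, HISAT2 for mapping to the CM334 genome v.1.6, and HTSeq 0.11.2 for read counts by gene. The deposited values are raw read counts per gene, without normalization or pooling. The strand setting and the handling of multi-mapped reads are not given in the sources used here. Reads of cv. Bukang were mapped to another cultivar. Each column matched 1 sample title, and 0 were left over.

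The tests used edgeR 4.0.16 under R 4.3.3, with filterByExpr, TMM scaling, glmQLFit and glmQLFTest. One fit held SA and mock at all hours from 1 to 24 h (30 libraries, 10 groups), so that a gene's spread was shared between groups, and the hormones at 6 h were compared in a fit of the 15 libraries of that hour. p-values were adjusted by Benjamini-Hochberg over all genes of a contrast, with 0.05 as threshold. Standard errors came from the F statistic. TMM assumes that most genes do not change, or that changes up and down balance. Scaled CPM is CPM divided by the TMM factor. On simulated counts, the contrast of SA and mock at 6 h recovered 91 of 100 genes changed by 1 log2 unit and 100 of 100 changed by 2 units, with 11 other genes called among 17881. The test of 6 h against 3 h recovered 44 of 100 and 98 of 100, with 9 others called. The simulation gave every gene and library the same spread and changed only well-counted genes. In the real data the SA replicates lay further apart than the mock replicates, so these rates may not hold there.

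The named genes passed the threshold, did not overlap in CPM between SA and mock at 6 h and had at least 10 counts in each library of the higher group. Among these they had the largest log2 fold change or the largest difference in mean CPM in their direction. The comparison, lists and rules were chosen with earlier results of these data known. The lists of hormone pathway genes and of leaf cell type markers could not be matched to the identifiers and gave no result. Other scalings, filters and fits, and DESeq2 1.42.0, were tried as alternatives. Descriptions used Python 3.11.15.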

Additional observations from a re-analysis of the deposited data

Results flagged for a closer look

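The response to SA at 6 h differed from that at another hour by a direct test for 2679 genes against 3 h, 2861 genes against 12 h and 1538 genes against the mean of both (adjusted p under 0.05, edgeR). In the simulation, which changed only well-counted genes and gave all genes the same spread, the test against 3 h found 44 of 100 genes changed by 1 log2 unit. Differences of that size can thus be missed, and the rate in the real data may differ.

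Among the named genes, CA.PGAv.1.6.scaffold160.11 fell further at 6 h than at 3 h (difference of -3.11 log2 units), than at 12 h (-3.31) and than at the mean of both (-3.21, adjusted p = 0.000292, edgeR), having been chosen for its fall at 6 h. Its mock level was not steady, with means of 2.92 CPM at 3 h, 11.7 CPM at 6 h and 19.1 CPM at 12 h, and its SA level was 0.856 CPM at 3 h, 0.411 CPM at 6 h and 7.82 CPM at 12 h. The rise of CA.PGAv.1.6.scaffold1405.6 was smaller at 6 h than at 12 h by a difference of -1.97 log2 units, and the fall of CA.PGAv.1.6.scaffold225.2 was smaller by 0.77.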

How the results depend on the processing

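Counts of genes were taken as changed past 1.5 times, named genes when their call was lost, the share of counts past 1 SD of the SA libraries, and the share of neighbours outside its 95% binomial interval. By this, 9 of 173 alternative values changed. A reversed direction was looked for only in the 57 values of named genes, where 0 reversed. Against a 1.5-fold change (glmTreat) 2510 genes were called at 6 h in place of 7574. With at least 10 counts in every 6 h library of SA and mock, 1624 genes changed at least 2-fold in place of 2657. That filter leaves out genes low in either group or in both. Genes without counts in mock numbered 47 and 16 with 5 and 20 counts as the minimum, in place of 27 with 10. With up to 1 count in each mock library there were 50, and without single libraries 30 to 39. Without a library the number could only stay or rise, since a condition is removed. Genes that rose at least 4-fold took 6.81% of the counts with SA, in place of 12.1% at 2-fold. The share of risen genes with a risen neighbour was 38.2% at any fold (29.5% over all genes) and 33.7% within 2 numbers (18.7% over all). Which direction held more calls turned around in 1 of 16 alternatives for SA against mock, 9 of 13 against 3 h, 1 of 13 against 12 h and 2 of 12 against their mean, and in 0 of 11 against each other hormone.

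Leaving out single libraries gave 6070 to 7252 genes for SA against mock at 6 h, 2326 to 2877 at 2-fold, 1933 to 2657 against 3 h, 2321 to 2701 against 12 h and 1093 to 1577 against their mean. It gave 7872 to 8547 genes against ET, 5014 to 6443 against MeJA and 6106 to 7396 against ABA. Of the named genes, 1 lost its call, CA.PGAv.1.6.scaffold225.2 without SA library 3 (log2 fold change -0.43, adjusted p = 0.0524, edgeR).

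Same-numbered SA and mock libraries of 6 h deviated together weakly or not at all (r across genes of -0.04, 0.07 and -0.05). At every hour from 1 to 24 h, SA library 2 was closest to mock library 2 (r of 0.02 to 0.11). Library 1 was closest to its own number at no hour, and library 3 at 12 h only. Values this weak do not settle whether the numbers pair the libraries. With the replicate block 7610 genes were called, and no call of a named gene changed. Thinned to equal depth, a choice made after seeing the data, 7101 genes were called, of which 6883 were among the 7574. DESeq2 called 7203 genes, of which 7041 were among them. The fit of 6 libraries called 7335, of which 6985 were. RLE scaling moved the share of genes higher by less than 3 percentage points in every comparison and the median log2 change at 6 h from -0.014 to -0.010.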
